A study of Homo sapiens with 9 samples.

Results

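Neurotransmitter receptors are the proteins on a cell's surface that bind GABA, glutamate, acetylcholine, serotonin or glycine. The genes were taken by symbol from the deposited expression table: GABA-A and GABA-B receptors, ionotropic and metabotropic glutamate receptors, nicotinic and muscarinic acetylcholine receptors, serotonin receptors and glycine receptors. Of the 25084 genes in the table, 60 matched. RNA was sequenced from LAN5, an established human neuroblastoma cell line with amplified MYCN, in 9 libraries collected 72 h after nucleofection (electroporation) of a small interfering RNA (siRNA). A control siRNA (siCTR), an siRNA against the transcription factor MYCN (siMYCN, labelled siMYCN_2) and an siRNA against the transcription factor HAND2 (siHAND2, labelled siHAND2_3) were each measured in 3 libraries. All groups shared the cell line, the nucleofection and the growth medium. Each target was hit with only 1 siRNA sequence label. The labels do not say whether the libraries of a group came from separate cultures, so p-values measure the spread between these libraries, which may be technical.

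GABA-A, glycine, nicotinic and HTR3 receptors are pentameric pores, whereas AMPA, kainate and NMDA glutamate receptors are tetramers. Muscarinic, metabotropic glutamate, GABA-B and the remaining serotonin receptors act through G proteins. Sympathetic neurons, the lineage from which neuroblastoma arises, receive their fast input through nicotinic receptors that contain the alpha-3 subunit.

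The values were CPM, the reads of a gene scaled to the same total in each library. Reads per library, judged from the smallest step between low values, ranged from about 21100000 to 32700000, so 1 CPM carried a counting coefficient of variation of 17.5% to 21.8%. The targeted genes were checked first. MYCN measured 1848, 1894 and 1786 CPM under siCTR, 1338, 1245 and 1285 under siMYCN and 898, 969 and 877 under siHAND2. HAND2 measured 489 to 516 CPM in siCTR, 557 to 588 CPM in siMYCN and 267 to 280.4 CPM in siHAND2. Both targets were thus lower under their own siRNA, and the libraries labelled siHAND2 held less MYCN than those labelled siMYCN. Of 10 fixed neuroblastoma markers, 9 reached 1 CPM in at least 3 libraries (SLC18A2 reached it in 2). Their summed level was 2177 to 2322 CPM in siCTR, 2772 to 2868 CPM in siMYCN and 2215 to 2325 CPM in siHAND2. The level sum in siHAND2 hides opposite moves, and ELAVL4 alone held 953 to 1000 CPM of it in siCTR. DBH (243 to 277 CPM in siCTR, 127 to 137 in siHAND2), DDC, PRPH and TH lay below every siCTR library. STMN2 (164 to 186 CPM in siCTR, 315 to 359 in siHAND2) lay above, and the other markers overlapped siCTR. None of the 5 Schwann cell, 4 endothelial or 2 immune markers in the table reached 1 CPM in 3 libraries. Of 4 astrocyte markers, SLC1A2 alone did so, at 52.6 to 86.7 CPM. The 8 mesenchymal markers summed to 603 to 649 CPM in siCTR, 837 to 872 CPM in siMYCN and 1187 to 1327 CPM in siHAND2. VIM alone held 495 to 541 CPM of this sum in siCTR, 684 to 710 in siMYCN and 959 to 1077 in siHAND2. COL1A1 and PRRX1 stayed below 1 CPM in every library. The part of these shifts in the receptor results was not tested. In these bulk libraries a change in the share of cells with a transcript and a change in RNA per cell cannot be told apart.

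Receptor genes were tested together with every gene of the table that reached 1 CPM in at least 3 of the 9 libraries, in a limma linear model of log2(CPM + 1). This scale understates the change of low genes. Use of strand in counting is not given in the sources used here, so reads from stretches that a gene shares with one on the opposite strand cannot be assigned with certainty. Of the 60 receptor genes, 31 passed this filter and 29 did not. HTR5A passed through the siCTR libraries alone, so it had to differ, and the counts of falls against siCTR below include it. GRIK3 reached 1 CPM in 3 siCTR libraries but in only 1 library of each knockdown, and GRM6 in no siCTR library. Their passing of the filter thus rested mainly on the groups where they were high. The falls in siMYCN include GRIK3 and the rises in siHAND2 include GRM6, and both calls held with no filter on low values. In siMYCN against siCTR, 16 of the 31 rose and 4 fell at a Benjamini-Hochberg adjusted p below 0.05. Over all 14495 genes tested, 24.5% rose and 11.4% fell. In siHAND2 against siCTR, 10 rose and 9 fell, where 18.1% of all genes rose and 11.8% fell. In siHAND2 against siMYCN, 6 were higher and 11 lower, where 11.4% of all genes were higher and 15.5% lower. The median log2 fold change of the receptor genes tested was 0.23, 0.001 and -0.12 in these comparisons, and that of all genes tested 0.06, 0.04 and -0.01. The groups of every called receptor gene did not overlap. Over all genes tested, called or not, the groups of 49.5%, 42.4% and 38.7% did not overlap, in the same order. The called genes were selected by the test, so these shares are not comparable. The comparisons share libraries and are not independent of each other. Rescaling the libraries to the median gene lowered the share of rises among all called genes from 68.3% to 51.2% in siMYCN and from 60.6% to 47.1% in siHAND2. With that rescaling 14 receptor genes rose and 5 fell in siMYCN, and 9 rose and 9 fell in siHAND2.

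**Figure D1:**
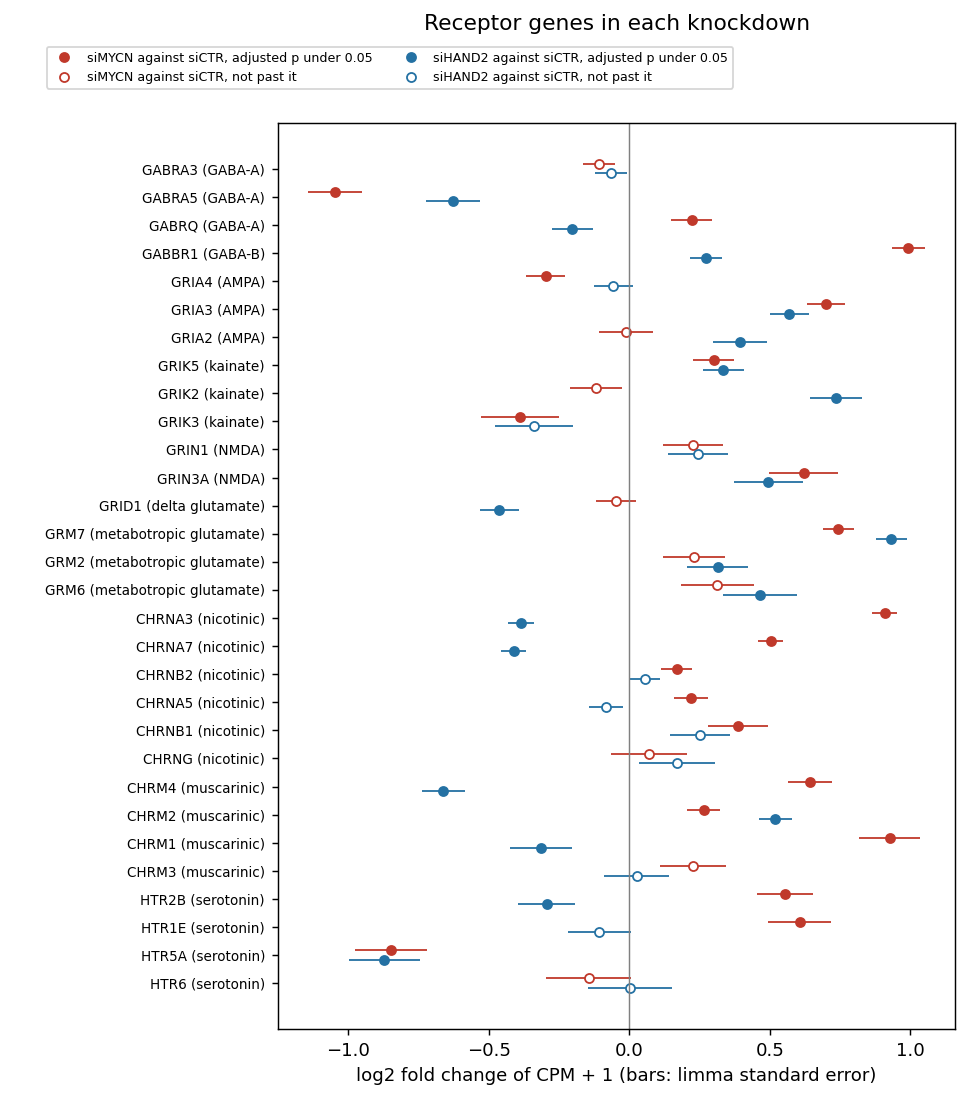
Log2 fold change of CPM + 1 (x axis) for receptor genes tested, against siCTR, with siMYCN in red and siHAND2 in blue. Bars are limma standard errors, and filled points passed an adjusted p of 0.05. CHRNA3, CHRNA7, CHRM4, CHRM1, HTR2B and GABRQ passed the test to the right of 0 in siMYCN and to the left in siHAND2.

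Promoters are shown for 4 receptor genes with different patterns, since MYCN and HAND2, whose transcripts were targeted, belong to a family of proteins known to bind DNA at E-boxes, written CANNTG. HTR5A was lower in each knockdown, CHRM2 rose in each, CHRM4 rose in siMYCN and fell in siHAND2, and HTR1E rose in siMYCN. Each sequence gives the 250 bases before the RefSeq start (GRCh38.p14), 5′ to 3′ on the strand of the gene, with every match to CANNTG in capitals.
HTR5A (chr7:155070074-155070323, plus strand): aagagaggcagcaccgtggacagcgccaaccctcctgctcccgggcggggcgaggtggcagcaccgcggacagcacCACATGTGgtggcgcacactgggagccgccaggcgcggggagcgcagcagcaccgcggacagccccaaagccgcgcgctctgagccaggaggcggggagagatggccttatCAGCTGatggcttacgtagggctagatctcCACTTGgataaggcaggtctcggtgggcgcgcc
CHRM2 (chr7:136868402-136868651, plus strand): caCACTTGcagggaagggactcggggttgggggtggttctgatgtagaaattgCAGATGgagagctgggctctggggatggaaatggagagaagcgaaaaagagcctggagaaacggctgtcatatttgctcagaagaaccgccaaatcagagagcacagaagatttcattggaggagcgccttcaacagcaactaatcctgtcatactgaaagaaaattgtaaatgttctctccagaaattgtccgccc
CHRM4 (chr11:46391777-46392026, minus strand): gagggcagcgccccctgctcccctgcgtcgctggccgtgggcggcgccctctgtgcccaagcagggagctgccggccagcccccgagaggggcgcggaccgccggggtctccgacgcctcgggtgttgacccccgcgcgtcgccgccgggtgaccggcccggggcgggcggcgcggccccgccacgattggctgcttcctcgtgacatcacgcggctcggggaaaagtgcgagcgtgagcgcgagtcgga
HTR1E (chr6:86937278-86937527, plus strand): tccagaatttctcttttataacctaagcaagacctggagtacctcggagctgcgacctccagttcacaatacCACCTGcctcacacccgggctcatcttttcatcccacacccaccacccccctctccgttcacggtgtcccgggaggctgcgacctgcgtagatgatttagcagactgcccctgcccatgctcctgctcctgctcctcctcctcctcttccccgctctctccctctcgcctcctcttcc
Of the 60 receptor genes, 44 had an entry in the RefSeq promoter table, 22 of them among the 31 tested. The HTR5A window, which lies within the span of HTR5A-AS1 on the opposite strand, held 4 matches to CANNTG, that of CHRM2 held 2, that of HTR1E held 1 and that of CHRM4 held 0. Among the 22, CANNTG was found in 11, or 50.0%, against 61.8% of all 35116 promoters of this length in the table. The form CACGTG, part of CANNTG, was found in 2 of the 22 (CHRNA7 and HTR6), or 9.09%, against 6.34% of all promoters. The form CATCTG, searched on both strands and likewise part of CANNTG, was found in 3 (CHRM2, CHRNB1 and HTR6), or 13.6%, against 12.2%. A match describes letters only, and binding was not measured. The RefSeq start of HTR5A and of HTR1E was that of the gene in the expression table, that of CHRM2 lay 17 bases before it, and that of CHRM4 lay 5168 bases before it. Among the other genes tested, the starts of CHRNA7, GRIK2 and GRM7 lay 107045, 212451 and 91114 bases inside the gene. The windows of CHRM1, CHRNA3, GRIA4 and GRIA2 shared 198 to 231 runs of 20 bases with transcripts of the same gene. Some of the 22 windows thus hold exon sequence. GABRA5 is not among the 44.

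Levels of different genes were compared per kilobase of transcript, in siCTR. The nicotinic genes CHRNA3 at 36.3 CPM per kb, CHRNA7 at 28.1, CHRNB2 at 11.4 and CHRNA5 at 10.8 were high on this scale, with GABRA3 at 8.53 and CHRM4 at 6.19 CPM per kb. The siCTR libraries of CHRNB2 and CHRNA5 overlapped. The nicotinic genes together held 391 to 398 CPM in the siCTR libraries. In siMYCN the nicotinic sum was 560.4 to 593 CPM and in siHAND2 321 to 337 CPM, and the groups did not overlap. These sums are not per kb, and CHRNA7 and CHRNA3 were their largest parts. In siHAND2 these were the only nicotinic genes tested that passed the threshold against siCTR.

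**Figure D2:**
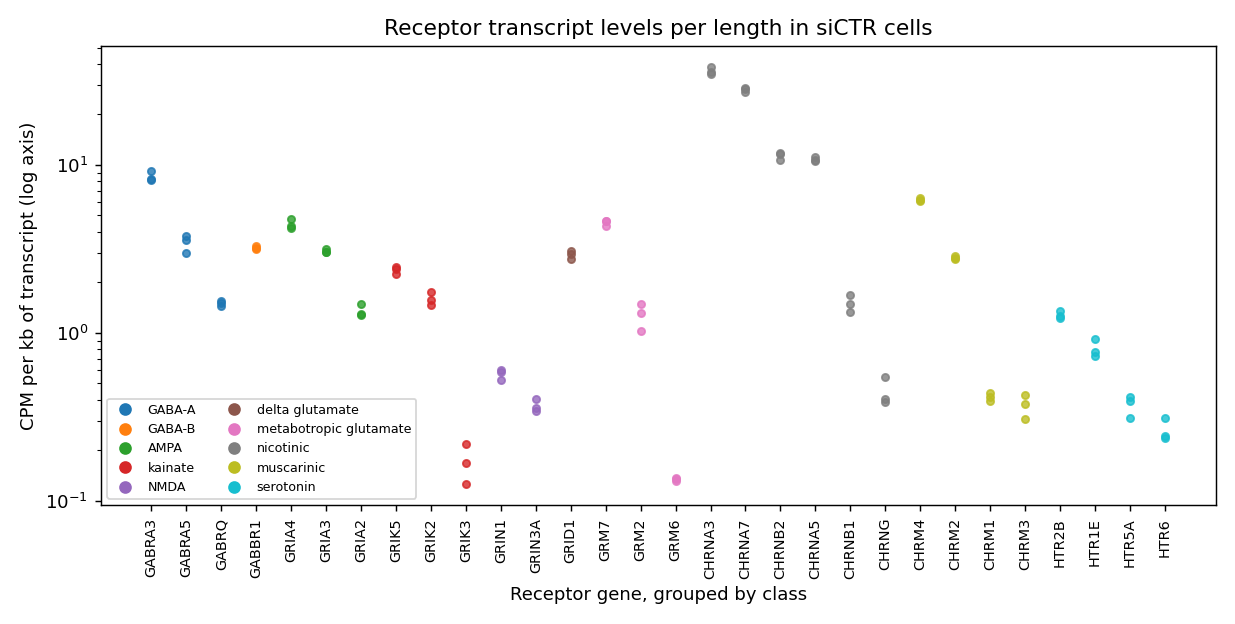
Level in the 3 siCTR libraries (points) of receptor genes that passed the filter, in CPM per kb of transcript on a log axis, grouped and coloured by receptor class. CHRNA3 and CHRNA7 lie above 25 CPM per kb, and GRIK3 and GRM6 lie lowest.

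Of the GABA-A receptor genes, GABRA5 fell in each knockdown while GABRA3 did not pass the test against siCTR. GABRA5 (chromosome 15, 26866911 to 26949208, plus strand, GRCh38) encodes the alpha-5 subunit, known from extrasynaptic receptors of the hippocampus. It measured 7.64, 9.62 and 9.16 CPM under siCTR, 3.71, 3.64 and 3.84 under siMYCN and 5.16, 5.06 and 5.77 under siHAND2. The 3 groups did not overlap, with siMYCN lowest and siHAND2 between. These were 42.3% (siMYCN) and 60.5% (siHAND2) of the siCTR mean. On the log2 scale GABRA5 fell by 1.05 with siMYCN (standard error 0.09, limma adjusted p = 5.98e-07) and by 0.63 with siHAND2 (adjusted p = 9.99e-05). The direct comparison put siHAND2 above siMYCN by 0.42 (adjusted p = 0.00329).

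GABRA3, the alpha-3 subunit gene, measured 29.8 to 33.7 CPM in siCTR, 28.1 to 29.5 in siMYCN and 29.2 to 30.3 in siHAND2. Its changes were -0.11 (95% interval -0.23 to 0.01) and -0.06 (-0.19 to 0.06), and the first passed the threshold after rescaling to the median gene (-0.16, limma adjusted p = 0.0402).

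GABRQ, the theta subunit gene, measured 9.69, 10.07 and 9.40 CPM under siCTR, 11.7, 10.8 and 12.03 under siMYCN and 8.45, 8.09 and 8.40 under siHAND2. The siMYCN libraries lay above and the siHAND2 libraries below all siCTR libraries. Its rise of 0.22 (limma adjusted p = 0.0254) and fall of 0.20 (adjusted p = 0.0451) were near the threshold and were lost in 7 and 10 of 18 alternative fits. The difference of -0.42 between siHAND2 and siMYCN held in all 18 (adjusted p = 0.00032). GABRA4, GABRG3, GABRE and GABRR2 did not pass the filter. Their highest libraries stood at 0.854, 0.262, 0.213 and 0.137 CPM.

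GABBR1 and GABBR2 encode the subunits of the GABA-B receptor, which reaches the surface only as a pair of them. GABBR1 measured 14.4, 14.8 and 14.2 CPM under siCTR, 29.8, 29.3 and 30.4 under siMYCN and 18.4, 17.5 and 17.2 under siHAND2. The siMYCN libraries were about double the siCTR level (206% of the mean), and the siHAND2 libraries lay between. The rise was 0.99 with siMYCN (standard error 0.06, limma adjusted p = 1.31e-08) and 0.27 with siHAND2 (adjusted p = 0.00197), with a direct difference of -0.72 (adjusted p = 7.1e-08). GABBR2 did not pass the filter. It was listed at 0 in all 3 siMYCN libraries and in siCTR replicate 3, and at 0.0988, 0.159 and 0.142 CPM in siHAND2.

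**Figure D3:**
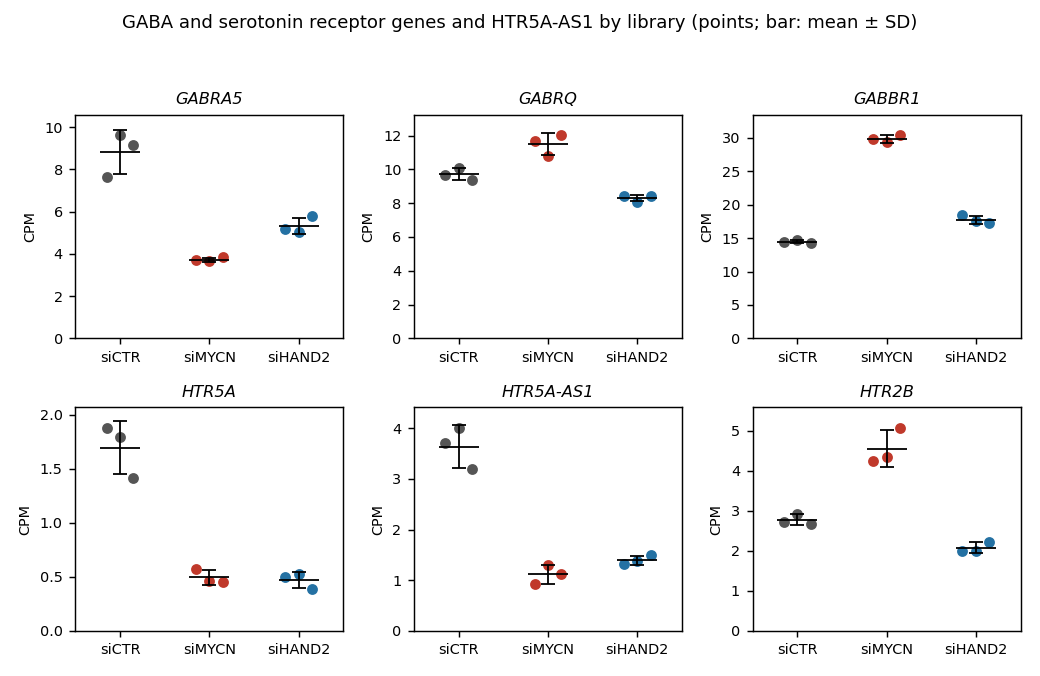
CPM (y axis, from 0) of 5 GABA and serotonin receptor genes and of HTR5A-AS1 in each library (points) with the mean ± SD of 3 libraries. GABRA5, HTR5A and HTR5A-AS1 are lower in each of the 6 knockdown libraries than in any siCTR library, GABBR1, GABRQ and HTR2B are highest in siMYCN.

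Of the 6 nicotinic genes tested with limma, 5 rose and 0 fell in siMYCN, where 24.5% of all genes rose and 11.4% fell. At an unadjusted p below 0.05 the count of falls was also 0. In siHAND2 2 fell and 0 rose, where 11.8% of all genes fell and 18.1% rose, with 1 gene, CHRNB1, higher at an unadjusted p below 0.05. CHRNA3 (chromosome 15, 78593052 to 78621295, minus strand) encodes the alpha-3 subunit of ganglionic receptors. It measured 107, 105 and 116 CPM under siCTR, 212, 197 and 209 under siMYCN and 83.8, 82.8 and 83.9 under siHAND2. The siMYCN libraries lay above and the siHAND2 libraries below every siCTR library, at 188% and 76.3% of the siCTR mean. The rise was 0.91 (standard error 0.05, limma adjusted p = 2.44e-09), the fall -0.39 (adjusted p = 7.84e-06) and the direct difference -1.29 (adjusted p = 5.79e-12).

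CHRNA7 (chromosome 15, 31923438 to 32173018, plus strand) encodes the alpha-7 subunit, which forms pores on its own. It measured 174, 176 and 168 CPM under siCTR, 246, 237 and 252 under siMYCN and 125, 126 and 137 under siHAND2. The order was that of CHRNA3, with no overlap between groups. CHRNA7 rose by 0.50 with siMYCN (limma adjusted p = 4.97e-07) and fell by 0.41 with siHAND2 (adjusted p = 2.86e-06). CHRFAM7A carries a partial copy of CHRNA7, and how reads that fit both were counted is not given in the sources used here. It measured 11.9 to 12.6 CPM in siCTR, 12.6 to 14.2 in siMYCN and 9.57 to 11.2 in siHAND2, with changes of 0.12 and -0.19 that did not pass the threshold (adjusted p = 0.263 and 0.074). The second passed it with either other scaling (limma adjusted p = 0.0375 and 0.023). CHRFAM7A was lower in siHAND2 than in siMYCN (-0.31, limma adjusted p = 0.00716), a call that held in all 18 alternative fits.

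CHRNA5, the alpha-5 subunit gene beside CHRNA3, shares 2218 bp with it on the opposite strand. It measured 38.5, 40.3 and 38.6 CPM under siCTR, 42.4, 47.2 and 47.6 under siMYCN and 35.3, 35.4 and 40.0 under siHAND2. It rose by 0.22 with siMYCN (limma adjusted p = 0.01), while the siHAND2 libraries overlapped siCTR (-0.08, 95% interval -0.21 to 0.05). CHRNB2, the beta-2 subunit gene, measured 62.5 to 69.3 CPM in siCTR, 70.8 to 79.1 in siMYCN and 66.3 to 73.1 in siHAND2. Its rise of 0.17 with siMYCN (adjusted p = 0.0255) was lost in 6 of 18 alternative fits, among them the 2 other scalings. CHRNB1, the beta subunit of the muscle receptor, measured 3.39 to 4.32 CPM in siCTR, 4.68 to 5.72 in siMYCN and 4.34 to 5.39 in siHAND2. It rose by 0.39 with siMYCN (adjusted p = 0.0102), a call lost without siCTR replicate 1. Its change of 0.25 in siHAND2 did not pass the threshold (adjusted p = 0.0874) and passed it with the replicate number as a block (adjusted p = 0.0485).

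CHRNG, the gamma subunit of the fetal muscle receptor, measured 1.53 to 2.41 CPM over the 9 libraries, with changes of 0.07 (95% interval -0.22 to 0.36) and 0.17 (-0.12 to 0.46). The remaining 6 nicotinic genes did not pass the filter. CHRNB4, which lies beside CHRNA3 and whose product pairs with alpha-3 in ganglia, reached 0.132 CPM in its highest library. CHRNA6 stood nearest the filter, at 0.142 to 0.487 CPM in siCTR, 0.384 to 0.483 in siMYCN and 0.797 to 1.06 in siHAND2. The siHAND2 libraries of CHRNA6 lay above all others. CHRNA10 reached 0.854 CPM, CHRNA9 0.274, CHRNE 0.264 and CHRNA2 0.0768 in the highest library.

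Of the 4 muscarinic genes tested, CHRM4 and CHRM1 were higher in siMYCN and lower in siHAND2 than in siCTR, whereas CHRM2 rose in each knockdown. CHRM4 (chromosome 11, 46385098 to 46386608, minus strand), a receptor that lowers cyclic AMP, measured 9.32, 9.21 and 9.54 CPM under siCTR, 15.8, 14.99 and 14.7 under siMYCN and 5.13, 6.13 and 5.42 under siHAND2. No groups overlapped, at 162% (siMYCN) and 59.4% (siHAND2) of the siCTR mean. The rise of 0.64 (limma adjusted p = 9.83e-06) and the fall of 0.66 (adjusted p = 6.98e-06) gave a direct difference of -1.30 (standard error 0.08, adjusted p = 1.6e-09).

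CHRM1, which signals through phospholipase C, measured 1.101, 1.16 and 1.04 CPM under siCTR, 3.02, 2.88 and 3.08 under siMYCN and 0.724, 0.709 and 0.638 under siHAND2. Its siMYCN libraries stood well above the others. The rise was 0.93 with siMYCN (limma adjusted p = 8.32e-06). The change of -0.31 with siHAND2 (adjusted p = 0.04) was lost in 11 of 17 alternative fits, among them all 9 that left out a library, so this fall was not stable. The direct difference was -1.24 (adjusted p = 2.3e-07). CHRM2, the receptor best known from the heart, measured 17.2, 16.5 and 16.8 CPM under siCTR, 19.6, 20.4 and 21.3 under siMYCN and 24.5, 23.7 and 25.5 under siHAND2. Its groups followed each other without overlap. CHRM2 rose by 0.26 with siMYCN (limma adjusted p = 0.00251) and by 0.52 with siHAND2 (adjusted p = 5.4e-06). CHRM3 measured 2.80 to 4.41 CPM over the 9 libraries and did not pass the threshold in either knockdown (0.23, 95% interval -0.02 to 0.47, and 0.03, -0.22 to 0.27). CHRM5 reached 0.461 CPM in its highest library.

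**Figure D4:**
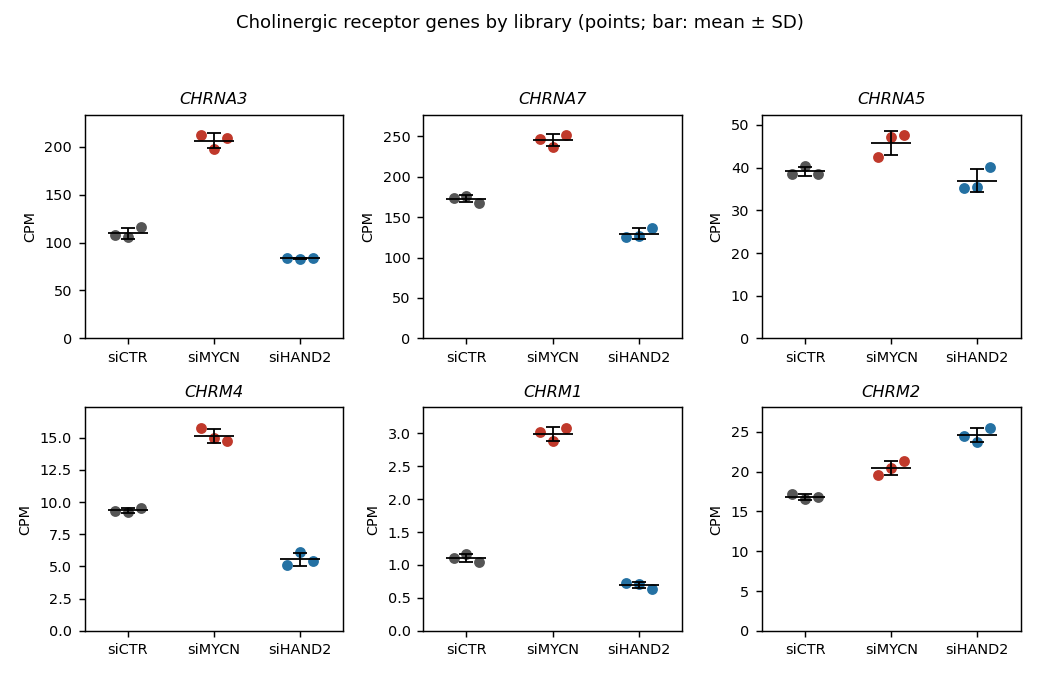
CPM (y axis, from 0) of 3 nicotinic and 3 muscarinic receptor genes in each library (points) with the mean ± SD of 3 libraries. CHRNA3, CHRNA7, CHRM4 and CHRM1 are highest in siMYCN and lowest in siHAND2, and CHRM2 is highest in siHAND2.

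Among ionotropic glutamate receptor genes, GRIA3, GRIK5 and GRIN3A rose in each knockdown, GRIA2 and GRIK2 rose in siHAND2, GRIA4 fell in siMYCN and GRID1 fell in siHAND2. AMPA receptors carry fast excitation, and their subunits are the products of the GRIA genes. GRIA3 measured 15.5, 15.5 and 16.3 CPM under siCTR, 26.4, 23.8 and 28.8 under siMYCN and 24.8, 23.4 and 23.5 under siHAND2. The knockdown groups lay above siCTR and overlapped each other. GRIA3 rose by 0.70 with siMYCN (limma adjusted p = 1.21e-06) and by 0.57 with siHAND2 (adjusted p = 9.08e-06).

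GRIA4 had the highest siCTR level per kb of the AMPA genes (4.44 CPM per kb, against 3.07 for GRIA3 and 1.35 for GRIA2). It measured 23.8, 26.3 and 23.2 CPM under siCTR, 18.3, 20.51 and 20.2 under siMYCN and 22.5, 22.5 and 25.3 under siHAND2. It fell by 0.30 with siMYCN (limma adjusted p = 0.00335), while siHAND2 overlapped siCTR (-0.06, 95% interval -0.20 to 0.09). The siHAND2 value was above that of siMYCN by 0.24 (adjusted p = 0.0165), a call lost without siMYCN replicate 1 or siHAND2 replicate 3. GRIA2, whose edited product limits calcium entry, measured 7.18, 7.30 and 8.30 CPM under siCTR, 7.05, 7.63 and 7.85 under siMYCN and 9.24, 9.72 and 12.1 under siHAND2. It rose by 0.39 with siHAND2 (adjusted p = 0.00527) and differed by -0.01 with siMYCN (95% interval -0.22 to 0.19). GRIA1 reached 0.483 CPM in its highest library.

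GRIK2 encodes a core kainate receptor subunit. It measured 7.40, 6.93 and 8.30 CPM under siCTR, 6.20, 7.59 and 6.82 under siMYCN and 13.3, 12.03 and 14.3 under siHAND2. The siHAND2 libraries lay apart from the other 6, which overlapped. GRIK2 rose by 0.73 with siHAND2 (limma adjusted p = 1.52e-05), differed by -0.12 with siMYCN (95% interval -0.31 to 0.08), and was higher in siHAND2 than in siMYCN by 0.85 (adjusted p = 2.63e-06). GRIK5, a subunit that works only with others, rose from 10.7 ± 0.579 CPM in siCTR to 13.4 ± 0.452 in siMYCN and 13.7 ± 1.01 with siHAND2 (SD, n = 3). Its changes were 0.30 (limma adjusted p = 0.00452) and 0.33 (adjusted p = 0.00262). GRIK3 measured 1.59, 2.06 and 1.19 CPM in siCTR and 0.916 to 1.28 CPM in the knockdowns. Its fall of 0.39 with siMYCN (adjusted p = 0.0367) was lost in 5 of 17 alternative fits, each without 1 library, and its change of -0.34 in siHAND2 did not pass (adjusted p = 0.0741) but passed in 3 of 17 alternative fits. GRIK4 reached 0.537 CPM.

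NMDA receptors need the subunit encoded by GRIN1. GRIN1 measured 2.28 to 2.63 CPM in siCTR, 2.74 to 3.41 in siMYCN and 2.80 to 3.39 in siHAND2. No siCTR library overlapped the knockdown libraries, yet the changes of 0.23 and 0.24 missed the threshold (limma adjusted p = 0.111 and 0.0983). The second passed it without the intensity trend (limma adjusted p = 0.0449). GRIN3A, a subunit that binds glycine, measured 2.78, 2.70 and 3.18 CPM under siCTR, 4.71, 4.18 and 6.17 under siMYCN and 3.85, 4.90 and 4.71 under siHAND2. It rose by 0.62 (adjusted p = 0.000896) and 0.49 (adjusted p = 0.00574). GRIN2C and GRIN3B reached 0.526 and 0.92 CPM in their highest library. GRID1, a delta receptor that links synapses through cerebellins, measured 16.8, 18.9 and 18.0 CPM under siCTR, 18.7, 16.2 and 16.99 under siMYCN and 13.1, 12.7 and 12.4 under siHAND2. GRID1 fell by 0.46 with siHAND2 (adjusted p = 0.000103) and differed by -0.05 with siMYCN (95% interval -0.20 to 0.10).

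Metabotropic glutamate receptors were led by GRM7 (chromosome 3, 6770001 to 7741533, plus strand), a presynaptic receptor that damps transmitter release. It measured 19.3, 19.1 and 17.9 CPM under siCTR, 31.8, 31.4 and 33.2 under siMYCN and 37.8, 36.5 and 36.1 under siHAND2. The 3 groups did not overlap, at 171% and 196% of the siCTR mean. GRM7 rose by 0.74 with siMYCN (standard error 0.05, limma adjusted p = 7.82e-08) and by 0.93 with siHAND2 (adjusted p = 2.04e-09). The direct difference of 0.19 (adjusted p = 0.0163) was lost without siMYCN replicate 1, siMYCN replicate 2 or siHAND2 replicate 1. GRM2 measured 3.46 to 5.02 CPM in siCTR, 4.71 to 5.55 in siMYCN and 5.17 to 5.79 in siHAND2. Its rise of 0.31 with siHAND2 (adjusted p = 0.0393) was lost in 8 of 18 alternative fits, the 2 other scalings among them. GRM6 measured 0.786 to 0.825 CPM in siCTR, 1.13 to 1.34 in siMYCN and 1.085 to 1.79 in siHAND2. It rose by 0.47 with siHAND2 (adjusted p = 0.0131), a call lost without siHAND2 replicate 2, and it entered the test through the knockdown libraries alone. GRM4 reached 0.599 CPM, GRM8 0.213 and GRM3 0.112 in the highest library.

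**Figure D5:**
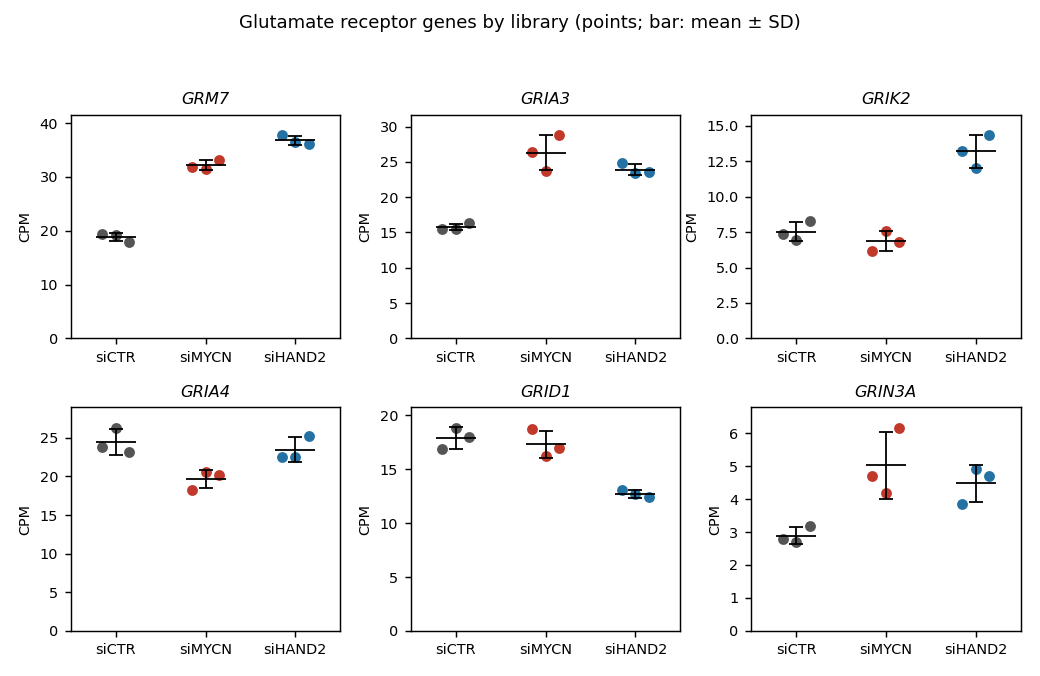
CPM (y axis, from 0) of 6 glutamate receptor genes in each library (points) with the mean ± SD of 3 libraries. GRM7 and GRIA3 are higher in all 6 knockdown libraries than in siCTR, GRIK2 is higher and GRID1 lower in siHAND2, and GRIA4 is lowest in siMYCN.

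The serotonin receptor genes were low. HTR2B and HTR1E rose in siMYCN, and HTR5A was lower in each knockdown than in siCTR. HTR5A (chromosome 7, 155070324 to 155087392, plus strand), whose promoter is printed above, measured 1.88, 1.79 and 1.42 CPM under siCTR, 0.57, 0.463 and 0.45 under siMYCN and 0.495, 0.529 and 0.39 under siHAND2. The knockdown groups overlapped each other and lay below siCTR, at 29.1% and 27.8% of its mean. HTR5A passed the filter through siCTR alone, so its test is given from the fit with no filter on low values. There it fell by 0.85 with siMYCN (limma adjusted p = 2.6e-05) and by 0.87 with siHAND2 (adjusted p = 1.8e-05). In the fit with the filter it had a direct difference of -0.02 (95% interval -0.29 to 0.25). HTR5A-AS1 lies on the opposite strand and shares 2127 bp with HTR5A. It measured 3.19 to 4.01 CPM in siCTR, 0.92 to 1.30 in siMYCN and 1.31 to 1.49 in siHAND2. Reads from the shared stretch cannot be told apart without strand, so the values are not taken as separate evidence.

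HTR2B measured 2.72, 2.93 and 2.66 CPM under siCTR, 4.23, 4.33 and 5.08 under siMYCN and 2.01, 1.99 and 2.23 under siHAND2. The groups did not overlap. HTR2B rose by 0.55 with siMYCN (limma adjusted p = 0.000491), and its change of -0.29 with siHAND2 (adjusted p = 0.0374) was lost in 7 of 17 alternative fits. Its whole span lies within PSMD1 on the opposite strand, a proteasome gene at 198 to 223 CPM. PSMD1 measured 198 to 204 CPM in siCTR, 209 to 223 in siMYCN and 203 to 215 in siHAND2. HTR1E, which lowers cyclic AMP, measured 1.41, 1.68 and 1.33 CPM under siCTR, 2.90, 2.57 and 2.81 under siMYCN and 1.28, 1.39 and 1.20 under siHAND2. HTR1E rose by 0.61 with siMYCN (adjusted p = 0.000504), and siHAND2 overlapped siCTR (-0.11, 95% interval -0.34 to 0.13). HTR6 measured 0.411 to 1.19 CPM and passed no threshold. HTR7, HTR3A, HTR4 and HTR1B reached 0.398, 0.308, 0.0988 and 0.0659 CPM in the highest library. The 4 glycine receptor genes stood below HTR7 and HTR3A and above HTR4 and HTR1B by this measure. Their highest libraries were 0.242 CPM for GLRB, 0.23 for GLRA1, 0.165 for GLRA2 and 0.142 for GLRA4. In the shallowest library 3 reads amount to 0.142 CPM, so most of these levels rest on few reads. With no filter on low values, CHRNA6 was called higher in siHAND2 than in siCTR by 0.62 (limma adjusted p = 0.000595) and than in siMYCN by 0.44 (adjusted p = 0.00875). HTR7 was called higher in siHAND2 than in siCTR by 0.25 (limma adjusted p = 0.0449) and than in siMYCN by 0.26 (adjusted p = 0.0394). GLRA2 and GABBR2 were each higher than in siMYCN by 0.18 (limma adjusted p = 0.0303 and 0.0233). Against siCTR, GABRA4 changed by -0.42 (limma adjusted p = 0.0138) and GRM4 by -0.33 (adjusted p = 0.0101) in siHAND2. GRIK4 differed by -0.37 between siHAND2 and siMYCN (limma adjusted p = 0.004).

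Genes that supply, anchor or assist these receptors were read from the same fit. Of 72 listed, 62 were in the table and 46 passed the filter. In siMYCN 17 rose and 9 fell, where 24.5% and 11.4% of all genes tested did. In siHAND2 15 rose and 9 fell, where 18.1% and 11.8% of all genes did. Between the knockdowns 5 were higher and 12 lower in siHAND2, where 11.4% and 15.5% of all genes were. The median log2 fold changes of the partners were 0.15, 0.10 and -0.01, and those of all genes tested 0.06, 0.04 and -0.01. Of the glutamate receptor partners, 23 were tested, with 9 higher and 4 lower in siMYCN (24.5% and 11.4% of all genes) and 8 higher and 3 lower in siHAND2 (18.1% and 11.8% of all genes). CBLN2, a cerebellin that binds delta receptors, rose from 13.1 to 15.04 CPM in siCTR to 22.4 to 25.7 CPM in siMYCN and 22.1 to 25.8 CPM in siHAND2. Its changes were 0.75 and 0.71. CBLN1, the other cerebellin tested, changed by -0.21 and -0.30. CACNG4, an AMPA receptor partner, rose by 0.59 in siMYCN and by 0.18 in siHAND2. CACNG8, another, rose by 0.38 in siMYCN and by 0.57 in siHAND2.

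Of 4 tested genes of glutamate supply and uptake, 3 fell in siMYCN (11.4% of all genes), and 3 fell and 1 rose in siHAND2 (11.8% and 18.1% of all genes). SLC1A1, a glutamate transporter, measured 9.16 to 10.0 CPM in siCTR, 7.09 to 8.26 in siMYCN and 5.14 to 5.85 in siHAND2. Its changes were -0.30 and -0.72. ABAT, which breaks down GABA, rose by 0.57 in siMYCN and 0.56 in siHAND2, the only rise among the 3 tested genes of GABA supply and chloride in each comparison with siCTR. LYNX1, which binds nicotinic receptors and reduces their response, rose from 4.60 to 5.69 CPM in siCTR to 7.85 to 7.96 CPM in siMYCN, by 0.56. Between the knockdowns, MAOA, which degrades serotonin and noradrenaline, was lower in siHAND2 by 0.74 on the log2 scale (direct log2 difference -0.74). DLG2, a synaptic scaffold, differed by -0.65, GRIP2 by 0.61 and KCTD16, a GABA-B receptor partner, by 0.56 in the same comparison. KCTD12, another such partner, differed by -0.47. All changes named for these partners passed an adjusted p of 0.05 (limma).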

How the data were processed

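The authors deposited CPM values for 25084 genes in 9 libraries, per the file headers 1 column per library, with a constant of 0.0001 in every value. The submitters' processing notes name STAR 2.5.1, Partek and the builds hg19 and GRCh37. The gene positions in the table match GRCh38 instead: all 60 receptor genes lay on the same chromosome in a GRCh38 gene table and 53 started within 5000 bp. Positions are therefore given as GRCh38, counted from 1. Counting, strand use, annotation and filters are not given in the sources used here. Low values were whole multiples (within 0.02) of a smallest step for 79.4% to 80.9% of values, too few for a count model; the step gave depth only, for which intervals cover counting error alone.

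Genes at 1 CPM or more in at least 3 libraries (14495) were fitted as log2(CPM + 1) with limma 3.58.1 in R 4.3.3 (1 mean per group, all 9 libraries, intensity trend, two-sided), adjusted over all genes in each comparison. The model was run on simulated data with as many rises as falls and with independent libraries. That setting lacks the excess of rises against siCTR seen here, so it cannot show how far the calls depend on scaling. Lengths per kb came from the MANE Select or canonical GENCODE transcript of each gene, or from the table's span where that was shorter (CHRM4). Deviations of same-numbered libraries correlated at 0.102 to 0.215 for siMYCN and siCTR and at 0.121 to 0.266 for siHAND2 and siCTR. For siHAND2 and siMYCN they correlated at -0.129 to 0.434. Differently numbered libraries reached 0.0397, 0.179 and 0.219 in the same order, so whether the numbers pair libraries is not settled. The main fit did not pair libraries, and the replicate block was run as an alternative. The receptor genes tested are named, with the 4 partners of largest called change per comparison. CBLN1 and KCTD12 were added as relatives of named partners that went the other way. A few receptor genes, kept in the fits and counts, are not reported here. Members, lists and rules were chosen with earlier results of these data known. The alternatives were 2 pseudocounts, 2 filters, 2 scalings, a fit of 2 groups, no intensity trend, the replicate block and leaving out each library.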

Additional observations from a re-analysis of the deposited data

How the results depend on the processing

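Of 55 called differences of the receptor genes reported, 44 held in every alternative fit, 11 were lost in at least 1 and 0 reversed. Of 35 differences not called, 7 passed the threshold in at least 1. The replicate block changed no call but that of CHRNB1. Leaving out 1 library gave 14 to 17 rises and 3 to 4 falls with siMYCN, 8 to 10 rises and 6 to 8 falls with siHAND2, and 4 to 6 higher and 10 to 12 lower genes between the knockdowns. Counts moved by over 1.5 times in 2 cases: with no filter on low values, where 60 receptor genes are tested, 10 were higher in siHAND2 than in siMYCN, and with a filter of 5 CPM, where fewer genes are tested, 2 fell with siMYCN. Differences near 0 that passed no test changed sign, and the cause was not tested. For siHAND2 against siCTR, HTR6 gave -5.49e-05 with pseudocount 5, -0.0187 with median-ratio and -0.0768 with quantile scaling, and CHRM3 gave -0.0063 and -0.0433 with these scalings. Leaving out 1 library, GRIA2 ranged from -0.0477 to 0.0448 and HTR6 from -0.25 to 0.0323 for siMYCN against siCTR. For siHAND2 against siCTR, CHRM3 ranged from -0.0754 to 0.113 and HTR6 from -0.0349 to 0.0669. Between the knockdowns the ranges were -0.0293 to 0.0969 for GRIK3, -0.0168 to 0.0817 for GRIK5, -0.0463 to 0.0768 for GRIN1, -0.227 to 0.0072 for GRIN3A, -0.0507 to 0.0182 for HTR5A and -0.0309 to 0.251 for HTR6. Alternatives for the partner and neighbouring genes were added after seeing the data. Depth limits genes near 1 CPM most.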
